A study of Homo sapiens with 27 samples.

Results

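Transcripts of 9 genes for cell-surface heparan sulfate proteoglycans and the sulfatases that edit them were followed in HepG2 cells: the glypicans GPC1, GPC3, GPC4 and GPC6, the syndecans SDC1, SDC2 and SDC4, and the sulfatases SULF1 and SULF2. They were taken by gene name from the scanner output, where they had 12 probes on the platform shared by 8 compounds and 11 on the platform used for IND. They were 9 of 17266 named genes tested on the shared platform, and 7 of them were among 14266 named genes tested with IND. HepG2 is an established line from a human liver tumour. The cells were exposed for 48 h to 1 of 9 polycyclic aromatic hydrocarbons: chrysene, written CHR here, 3-methylcholanthrene (3MC), benzo[k]fluoranthene (BF), the small naphthalene (NP) and phenanthrene (PH), benzo[a]pyrene or BaP, dibenzo[a,h]anthracene (DBA), benzo[a]anthracene, shortened to BA, or indeno[1,2,3-c,d]pyrene, shortened to IND. There were 3 arrays for each, 27 in all, and on every array RNA of exposed cells carried Cy5 and RNA of cells given the vehicle DMSO carried Cy3. All arrays shared that dye orientation, so a dye effect and an effect of a compound cannot be told apart for any 1 compound. The labels give no dose and do not say whether the arrays of a compound were separate cultures, so SDs and p-values measure the spread between arrays, which may be technical. With doses unknown, compounds are set side by side and were not tested against each other. The 9 genes were chosen with their ratios to DMSO already known, so those ratios are given as a description and support no test.

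Heparan sulfate is a long sulfated sugar chain that binds growth factors, Wnt proteins, chemokines and lipoproteins at the cell surface. Glypicans hold these chains on a membrane by a lipid anchor, syndecans by a protein helix that spans the membrane, and both present ligands to their receptors. The sulfatases SULF1 and SULF2 work outside the cell and remove sulfate from the glucosamine 6-O position of finished chains, which changes which ligands bind. In the liver these proteoglycans take up lipoprotein remnants, and GPC3 is an oncofetal protein that hepatocellular carcinomas often make.

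The hepatocyte identity of the DMSO cells was visible on the arrays, where 9 of 10 hepatocyte markers, ALB and AFP among them, stood above background on all 24 shared-platform arrays, and HNF4A did so on 23. Fewer markers of other cells did so: 2 of 7 fibroblast and stellate markers, 0 of 5 endothelial and 1 of 5 leukocyte markers stood above background on all 24 arrays. The endothelial VWF and the leukocyte CD3E did so on 23, like HNF4A. Those on all 24 were PDGFRB, ACTA2 and CD68, with net Cy3 signals of up to 2804, 14131 and 6932. CYP1A1, the best known target of the aryl hydrocarbon receptor, served as the check of the Cy5 channel and had a mean log2 ratio of 0.48 with NP and from 2.61 to 6.22 with the other compounds. BA array 1 stood apart: its log2 ratios correlated with those of BA arrays 2 and 3 at only 0.180 and 0.130 across genes, and its CYP1A1 ratio was 0.55. Pairs of arrays of any other compound correlated at 0.901 to 0.987. For GPC6, GPC3 and SULF2 the values of BA are therefore given per array and without array 1, and for NRP1 and COL18A1 also without it. All other BA values, and the BA counts and shares of calls in the main fit, include array 1. The arrays of DBA, 3MC and NP were dim, with a median net Cy5 signal of 36 to 121 intensity units against 294 to 1482 on the others, and a faint probe carries less information there.

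Across the 9 compounds, 79 pairs of a member and a compound could be tested. In 18 of them the gene was called higher than DMSO, in 17 lower and in 44 neither, a call being a limma adjusted p under 0.05 (moderated linear model, Benjamini-Hochberg over all genes of the platform) and a mean ratio of at least 1.5-fold. The largest ratios in both directions belonged to GPC6, which was lower with 7 of 8 compounds, and SULF2, which was higher with 5 of 9 and lower with NP. GPC3 was called lower with 6 compounds and never higher. GPC1 was called higher with 6 compounds and SDC1 with 5, and neither was ever called lower. SDC4 was higher with 2 and lower with 1, SDC2 was lower with 2, and GPC4 and SULF1 were never called.

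The number of members called is given here beside the share of all genes called in the same comparison, and nothing is read from it, because the members were chosen on these ratios. With CHR, 4 members were higher and 2 lower, against 11.9% and 12.5% of all genes. BaP likewise had 4 higher and 2 lower, against 15.1% and 10.1%. With DBA, 3 were higher and 2 lower, against 3.09% and 7.21%. With 3MC, 3 were higher and 1 lower, against 3.71% and 7.39%. With BF, 1 member was higher and 4 lower, against 16.1% and 20.5%, a balance of all genes that turned with median centring in place of loess, to 4141 higher and 3368 lower. IND had 1 higher and 2 lower of the 7 tested, against 11% and 13.7%. BA had 1 higher and 2 lower, against 2.1% and 3.12%. NP had 0 higher and 2 lower, against 6.7% and 12.5%, and PH had 1 higher and 0 lower, against 10.5% and 7.95%.

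**Figure D1:**
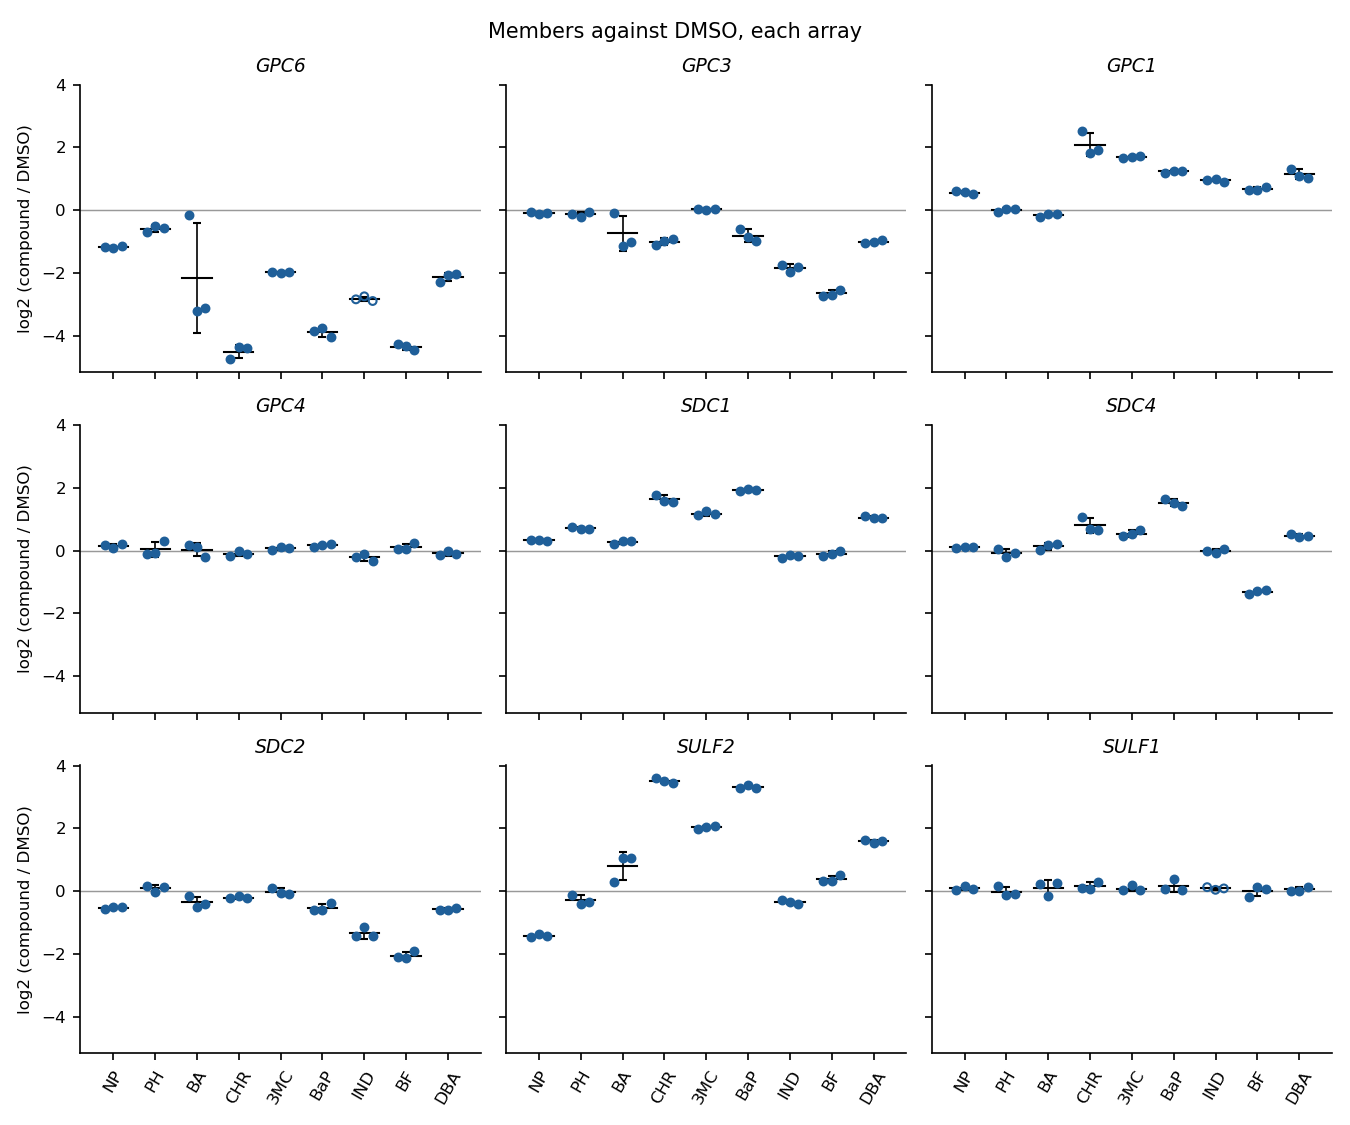
Log2 ratio of compound over DMSO (vertical axis) for each of the 9 genes and 9 compounds (horizontal axis). Each point is 1 array, the bar is the mean and the error bar the SD over 3 arrays, and open points mark IND values that did not pass the intensity filter. GPC6 reached a mean of -4.50 with CHR and SULF2 reached 3.52, whereas GPC4 and SULF1 stayed near 0 throughout.

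Promoter windows were read for 6 of the 9 genes. These were 10 windows, from 250 bases before to 50 after an annotated start (RefSeq, build GRCh38.p14). GPC3, SDC2 and SULF1 were not read, so the counts of windows below do not cover them. The 10 windows were read for GCGTG on both strands, the core letters to which the aryl hydrocarbon receptor and its partner ARNT bind. The letters occurred in 3 of the 10 windows, and in 36.5% of all 35116 promoter windows of that length. The longer string TNGCGTG, which contains the first, occurred in 1 of the 10 windows, that of GPC4, and in 5.51% of all windows. The 3 windows below are those of the gene with the highest ratios (SULF2), of the syndecan with the highest ratios (SDC1) and of the gene with the lowest ratios (GPC6), each 5′ to 3′ on the gene's strand, with GCGTG and its reverse complement CACGC in capitals. Of the windows of SULF2 and of SDC1, the one that held the letters is printed.
SULF2, chr20:47785432-47785731, minus strand, 1 of 4 windows of the gene: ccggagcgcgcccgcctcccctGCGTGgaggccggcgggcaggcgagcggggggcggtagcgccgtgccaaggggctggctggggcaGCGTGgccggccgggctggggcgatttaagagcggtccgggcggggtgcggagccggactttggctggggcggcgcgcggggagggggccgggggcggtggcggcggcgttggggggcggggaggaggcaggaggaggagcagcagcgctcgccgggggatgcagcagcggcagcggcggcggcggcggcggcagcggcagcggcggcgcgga
SDC1, chr2:20225426-20225725, minus strand, 1 of 2 windows of the gene: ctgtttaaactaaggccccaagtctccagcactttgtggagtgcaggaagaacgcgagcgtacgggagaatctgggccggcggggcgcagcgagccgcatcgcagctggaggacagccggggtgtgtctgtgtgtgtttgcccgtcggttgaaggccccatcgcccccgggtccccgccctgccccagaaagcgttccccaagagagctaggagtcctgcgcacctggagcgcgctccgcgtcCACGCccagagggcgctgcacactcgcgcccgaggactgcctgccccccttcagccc
GPC6, chr13:93226557-93226856, plus strand: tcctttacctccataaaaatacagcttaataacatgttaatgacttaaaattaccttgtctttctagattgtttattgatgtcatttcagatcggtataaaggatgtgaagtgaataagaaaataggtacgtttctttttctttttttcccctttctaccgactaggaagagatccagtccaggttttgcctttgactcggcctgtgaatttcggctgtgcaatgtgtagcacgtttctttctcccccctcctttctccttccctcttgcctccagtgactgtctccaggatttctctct
The SULF2 window held the letters at 2 places and the SDC1 window at 1, while the other windows of these genes and that of GPC6 held none. The GPC6 window lies inside the annotated span of the gene, so the region before the outermost start of GPC6 was not read. The single windows of SDC4 and GPC1 held none either, and that of GPC4, a gene that was never called, held them at 4 places. A match describes letters only and marks no binding site.

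GPC6, a glypican whose gene lies on chromosome 13, had the lowest ratios of the group. Its brighter probe (A_32_P97169, on the shared platform only) gave log2 ratios of -4.74, -4.37 and -4.40 with CHR. The net signal on those arrays was 137, 122 and 96 in Cy5 against 7002, 4992 and 4359 in Cy3. The mean of -4.50 ± 0.21 (SD, n = 3) is a 22.6-fold lower level than DMSO. With BF the 3 arrays gave -4.27, -4.32 and -4.45, a mean of -4.35 ± 0.09 (SD, n = 3) or 20.4-fold lower. With BaP they gave -3.85, -3.74 and -4.04, a mean of -3.88 ± 0.15 (SD, n = 3) or 14.7-fold lower. In the main processing these 3 compounds formed the low end, and their arrays did not overlap with those of any other compound. When the spread of ratios was scaled to be equal between arrays, DBA was lowest at -5.36, ahead of CHR (-3.43) and BaP (-3.23), and BF (-2.55) lay above 3MC (-2.72).

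A middle set followed in which the arrays of each compound were also all below 0. With DBA the ratios were -2.29, -2.05 and -2.04, where the Cy5 spot was well above background on 1 of 3 arrays (net 12, 12 and 15). The net Cy3 signal of these DBA arrays was 242, 203 and 194. The main processing adds 50 to both channels, more than these Cy5 signals, which draws such ratios toward 0. With 3MC the ratios were -1.98, -2.01 and -1.95 (mean -1.98 ± 0.03 SD, n = 3), and with NP -1.16, -1.20 and -1.14 (mean -1.16 ± 0.03 SD, n = 3). PH gave -0.69, -0.49 and -0.57, a mean of -0.58 ± 0.10 (SD, n = 3), just short of the size asked of a call. With the DBA signal this low, DBA has no order against 3MC, CHR, BF or BaP, and NP and PH lay above 3MC. With BA the arrays disagreed, at -0.14, -3.20 and -3.12. Without array 1 the BA mean is -3.16, against -2.15 ± 1.75 (SD, n = 3) with it, and the call is lost when BA is fitted alone with all 3 arrays.

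The second GPC6 probe (A_23_P371682) was dimmer and was the only GPC6 probe on the platform of IND. It gave -3.44 ± 0.11 with BaP, -3.62 ± 0.17 with BF and -3.96 ± 0.25 with CHR (SD, n = 3 each). With CHR its Cy5 spot was not well above background on any array (net 102, 73 and 73). The mean ratio there, 15.6-fold lower, rests on those faint Cy5 signals, so it is neither precise nor a minimum. With IND the ratios were -2.84, -2.74 and -2.89. There the Cy5 spot was not above background on any array and the Cy3 spot on 1 of 3, because the SD of the local Cy3 background was 157, 1263 and 1270 beside a net Cy3 signal of 1233, 1143 and 1189. GPC6 was thus not tested with IND, and no fold is given there.

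Both probes placed GPC6 low with CHR, BaP, BF and BA arrays 2 and 3, and they parted with NP, 3MC and DBA, whose arrays were dim. The second probe gave 0.01 ± 0.12 with NP, -0.27 ± 0.08 with 3MC and -0.15 ± 0.02 with DBA (SD, n = 3 each). Its net signals on these arrays lay between 8 and 204, next to 12 to 3138 for the brighter probe. Even so, it stood above background in both channels on all 3 arrays of NP and of 3MC. When both probes were averaged, the NP mean became -0.58 and was no longer called. In the authors' deposited ratios NP read -1.11 and was not called, and DBA had no value. The GPC6 ratios of NP, 3MC and DBA therefore rest on 1 probe. The 2 probes were named from different transcript records, and why they parted was not tested.

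**Figure D2:**
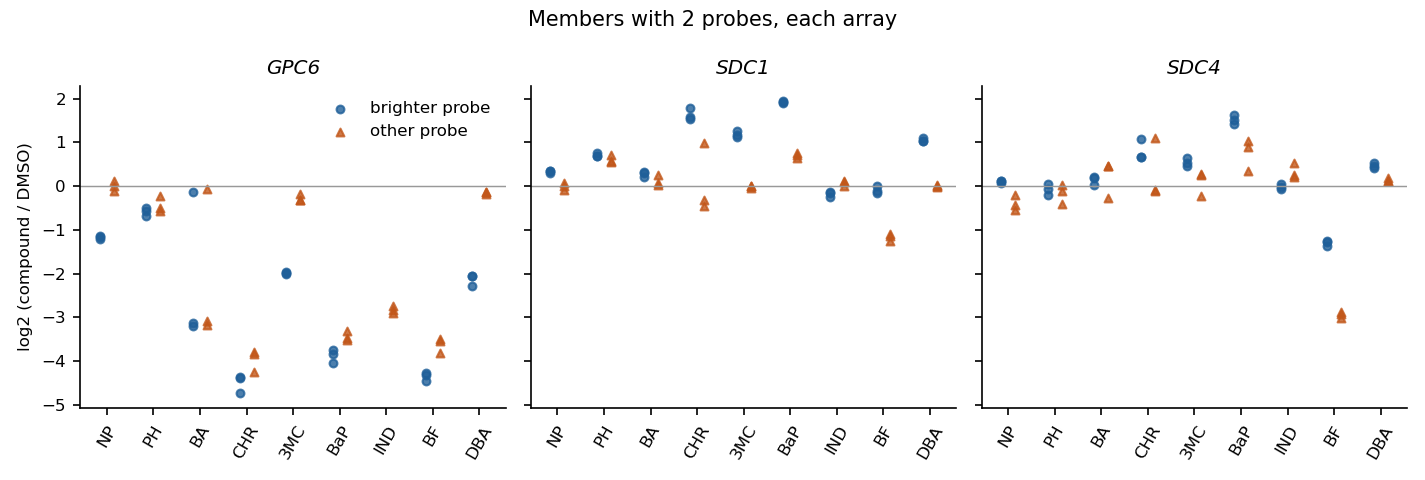
Log2 ratio of compound over DMSO (vertical axis) for GPC6, SDC1 and SDC4, the members with 2 probes, by compound (horizontal axis); circles are the brighter probe, triangles the other, 1 point per array. The GPC6 probes lie close with CHR, BaP and BF and apart with NP (-1.16 against 0.01), 3MC (-1.98 against -0.27) and DBA (-2.13 against -0.15).

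GPC3, the X-linked glypican known as a marker of hepatocellular carcinoma, was well measured in DMSO on every array. Its net Cy3 signal (A_24_P57631) ranged from 3230 to 56324 over the 27 arrays. With BF the ratios were -2.72, -2.69 and -2.54, a mean of -2.65 ± 0.10 (SD, n = 3) or 6.29-fold lower. With IND they were -1.74, -1.98 and -1.81, a mean of -1.85 ± 0.12 (SD, n = 3) or 3.59-fold lower. The BF arrays lay below all others and the IND arrays came next, with no overlap between them or with another compound. With scaling of spreads between arrays DBA was lowest for GPC3, at -2.53, and BF read -1.56.

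CHR gave -1.12, -0.98 and -0.92 for GPC3, and DBA gave -1.04, -1.01 and -0.96, so that these 2 compounds overlapped fully at a mean of -1.005 ± 0.11 and -1.003 ± 0.04 (SD, n = 3 each). BaP gave -0.59, -0.87 and -0.98, a mean of -0.81 ± 0.20 (SD, n = 3). The BA arrays gave -0.09, -1.13 and -1.002, a mean of -0.74 ± 0.57 (SD, n = 3), or -1.06 without array 1. NP (-0.08), PH (-0.13) and 3MC (0.03) lay near DMSO. For this bright gene the within-array normalisation mattered: with median centring in place of loess the means were -0.57 with CHR, -0.38 with DBA, -0.44 with BaP and -0.35 with BA, none of which was called, while BF (-1.94) and IND (-1.50) were still called.

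GPC1, a glypican on chromosome 2 that binds fibroblast growth factors through its chains, went the other way. With CHR the ratios were 2.51, 1.82 and 1.92, a mean of 2.09 ± 0.37 (SD, n = 3) or 4.24-fold higher. Array 1 of CHR lay above the others there. With 3MC the ratios were 1.68, 1.70 and 1.73, a mean of 1.70 ± 0.03 (SD, n = 3) or 3.26-fold higher, and all 3 arrays lay below those of CHR. With scaling of spreads between arrays GPC1 was highest with DBA (2.89), then 3MC (2.34) and CHR (1.60).

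BaP (1.24 ± 0.03) and DBA (1.15 ± 0.15) followed for GPC1, with overlapping arrays, then IND (0.96 ± 0.05) and BF (0.68 ± 0.05; SD, n = 3 each). In the authors' deposited ratios the DBA arrays (mean 1.76) all lay above the BaP arrays (mean 1.36). NP reached 0.56 ± 0.05 (SD, n = 3), close to the size of a call, and was called when NP array 3 was left out, at 0.59. PH (0.00 ± 0.06) and BA (-0.16 ± 0.05; SD, n = 3 each) lay at or just below DMSO. With median centring BA turned to 0.07 and PH to -0.04, neither of them called. The BF call of GPC1 was lost, at 0.40, when spreads were scaled between arrays.

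GPC4, a glypican whose gene neighbours GPC3 on the X chromosome, gave a faint signal (A_23_P435407; net Cy3 15 to 317 on the 27 arrays). Its compound means ran from -0.21 with IND to 0.18 with BaP, single arrays from -0.34 to 0.31, and none was called. With BF it was not well above background in either channel, so that a change could not be seen there.

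SDC1, the epithelial syndecan encoded on chromosome 2, was called higher with 5 compounds on its brighter probe (A_23_P16944). With BaP the ratios were 1.90, 1.96 and 1.93, from a net Cy3 signal of 2256, 1938 and 2340 and a Cy5 signal of 9075, 8498 and 9762. The mean was 1.93 ± 0.03 (SD, n = 3) or 3.81-fold higher. With CHR they were 1.79, 1.59 and 1.54, a mean of 1.64 ± 0.13 (SD, n = 3) or 3.12-fold higher. 3MC (1.18 ± 0.07) and DBA (1.06 ± 0.04) came next, and PH (0.72 ± 0.04; SD, n = 3 each) was the smallest of the 5. Scaling of spreads between arrays ended the PH call, at 0.55, and placed DBA first, at 2.66.

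The remaining compounds left SDC1 uncalled, at 0.33 with NP, 0.28 with BA, -0.09 with BF and -0.18 with IND. The other SDC1 probe (A_24_P97129) gave smaller ratios with the 5 compounds called, and 0.08 with IND. It read 0.62 with PH and 0.70 with BaP, and 0.99, -0.33 and -0.46 on the CHR arrays. With 3MC (-0.01) and DBA (-0.00), where its net signal was 23 to 130, it showed no difference. With BF it read -1.16, and the mean of both probes there was -0.63, which was called lower. The SDC1 values with CHR, 3MC and DBA thus depend on which probe is read.

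SDC4, the widely expressed syndecan of focal adhesions, encoded on chromosome 20, was called in both directions. With BaP the ratios of its brighter probe (A_23_P109034) were 1.64, 1.51 and 1.42, a mean of 1.52 ± 0.11 (SD, n = 3) or 2.87-fold higher. With CHR they were 1.08, 0.68 and 0.66, a mean of 0.81 ± 0.24 (SD, n = 3) or 1.75-fold higher. With BF they were -1.37, -1.28 and -1.26, a mean of -1.30 ± 0.06 (SD, n = 3) or 2.46-fold lower. The arrays of BaP were all above every other array and those of BF all below.

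3MC (0.55) and DBA (0.47) lay just short of a call. Both were called with plain background subtraction (0.62 and 0.64), with scaling of spreads (0.75 and 1.18) and with the authors' deposited ratios (0.59 and 0.64), DBA also with median centring (0.64), and 3MC without its array 1 (0.59). NP (0.10), PH (-0.07), BA (0.14) and IND (-0.01) lay near DMSO. The second SDC4 probe (A_24_P373976) gave a larger ratio with BF, at -2.93 ± 0.07 (SD, n = 3), and a smaller one with BaP, at 0.76 ± 0.36 (SD, n = 3). With CHR its arrays split, at 1.11, -0.11 and -0.09, and with both probes averaged the CHR mean was 0.55 and not called. CHR array 1 was the highest of the 3 CHR arrays on both probes of SDC1 and SDC4.

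SDC2, the syndecan of mesenchymal cells and also of hepatocytes, encoded on chromosome 8, was called lower with 2 compounds. With BF the ratios were -2.11, -2.12 and -1.91, a mean of -2.05 ± 0.12 (SD, n = 3) or 4.14-fold lower. With IND they were -1.44, -1.14 and -1.44, a mean of -1.34 ± 0.17 (SD, n = 3) or 2.53-fold lower. These are the compounds with which GPC3 was also lowest. DBA (-0.58), BaP (-0.53) and NP (-0.53) lay just short of a call. DBA was called at -0.60 without its array 3, and BaP at -0.60 without its array 3. With scaling of spreads DBA was called at -1.46 and lay below BF (-1.20), and with median centring NP was called at -0.77. BA (-0.36), CHR (-0.21), 3MC (-0.01) and PH (0.10) were closer to DMSO.

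SULF2, the sulfatase that hepatocellular carcinomas often overproduce, encoded on chromosome 20, had the highest ratios of the group and the widest range. With CHR the ratios were 3.59, 3.52 and 3.45, from a net Cy5 signal of 47984, 40053 and 39022 and a Cy3 signal of 4520, 3740 and 3786. The mean was 3.52 ± 0.07 (SD, n = 3) or 11.5-fold higher. With BaP they were 3.29, 3.37 and 3.30, a mean of 3.32 ± 0.04 (SD, n = 3). CHR and BaP stood apart from every other compound, with the CHR arrays all above the BaP arrays by a small margin. That order holds without scaling of spreads between arrays: with it DBA came first at 3.99, before 3MC (2.79), BaP (2.77) and CHR (2.68).

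3MC gave SULF2 ratios of 1.99, 2.04 and 2.07, a mean of 2.03 ± 0.04 (SD, n = 3) or 4.09-fold higher. DBA gave 1.63, 1.53 and 1.59, a mean of 1.58 ± 0.05 (SD, n = 3) or 3.00-fold higher. BA gave 0.29, 1.07 and 1.04, a mean of 0.80 ± 0.44 (SD, n = 3), or 1.06 without array 1, and was not called when BA was fitted alone. These 3 steps did not overlap. BF (0.38) was not called, but was called with median centring, at 0.76.

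At the other end NP gave SULF2 ratios of -1.45, -1.37 and -1.44, a mean of -1.42 ± 0.05 (SD, n = 3) or 2.68-fold lower. PH (-0.29) and IND (-0.35) were below DMSO on every array without being called. NP was thus the only compound with which SULF2 was called lower. Over all settings tried, scaling included, neither NP nor any of the compounds called higher changed sign for SULF2.

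SULF1, the other sulfatase, encoded on chromosome 8 and made mainly by stromal cells in liver, was near background (A_23_P43164; net Cy3 7 to 99 and net Cy5 2 to 131 over the 27 arrays). Its means ran from -0.02 with PH to 0.16 with BaP, none was called, and with IND it passed background in neither channel and was not tested. It stood above background in both channels on all 3 arrays with NP and PH only, so that a fall of SULF1 could not be seen with most compounds, whereas the net Cy3 signal of SULF2 was 188 to 8714.

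A ratio on these arrays moves with the DMSO channel as much as with the compound channel, and the scaled DMSO signal of a member differed between the sets of arrays. Scaled between the 24 shared-platform arrays, the DMSO level of SDC1 on the log2 intensity scale ran from 10.27 on the BaP arrays to 13.08 on the BF arrays. Its level in exposed cells was 12.20 ± 0.04 with BaP, 12.94 ± 0.19 with CHR and 12.98 ± 0.13 with BF (SD, n = 3 each). The exposed cells of CHR and BF thus overlapped in SDC1 level, and their ratios of 1.64 and -0.09 came with DMSO levels of 11.30 and 13.08. SDC4 had DMSO levels from 10.81 (3MC) to 13.51 (BF), a spread of 2.70 against 2.68 in exposed cells. Its DMSO levels were 10.81 to 11.01 on the dim arrays of 3MC, DBA and NP, and 12.27 to 13.51 on the others. The faint GPC4 had the widest DMSO spread of the members, 3.23, from 6.43 (BA) to 9.66 (DBA). The part of array brightness and of the scaling in these levels was not tested.

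SULF2 and GPC6 showed the larger spread in the exposed cells. SULF2 ran from 11.41 (NP) to 14.56 (BaP) in Cy5, a spread of 3.15, and from 10.72 (CHR) to 12.83 (NP) in DMSO, a spread of 2.11. The compounds at both ends of its ratio were also at the ends of its DMSO level. GPC6 ran from 6.41 (CHR) to 11.21 (NP) in Cy5, a spread of 4.81, against 1.69 in DMSO. GPC3 ran from 12.10 (BF) to 14.75 (PH) in Cy5, a spread of 2.65, against 0.95 in DMSO. The labels do not say whether DMSO cells were grown anew for each compound, and the part of the DMSO level in the ratios was not tested.

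**Figure D3:**
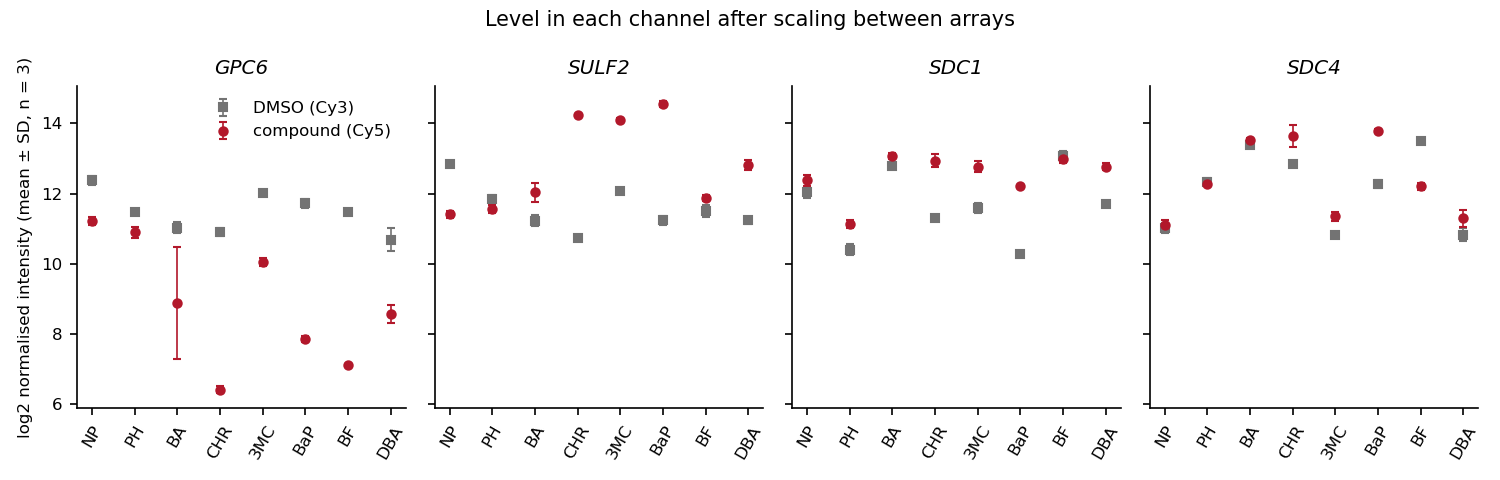
Level of GPC6, SULF2, SDC1 and SDC4 in DMSO cells (squares, Cy3) and exposed cells (circles, Cy5) on the log2 intensity scale, after scaling between the 24 shared-platform arrays, by compound (horizontal axis); mean and SD of 3 arrays. For GPC6 and SULF2 the circles spread more than the squares (4.81 against 1.69, and 3.15 against 2.11), for SDC1 less (1.94 against 2.81).

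Some members moved alike across compounds. Over the means of the 8 shared-platform compounds, Pearson's r was 0.904 between SDC1 and SDC4, 0.903 between GPC3 and SDC2, and 0.834 between SDC1 and SULF2. It was -0.674 between GPC6 and SULF2, 0.730 between GPC3 and GPC6, and 0.747 between GPC1 and SULF2. SULF1, near background and never called, reached 0.758 with SDC4. These coefficients describe 8 points that come from the same arrays and the same DMSO channel, and SDC4 and GPC3 each have BF at an extreme. GPC6 and SULF2 were opposite with CHR, BaP, 3MC, DBA and BA, but both were lower with NP.

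Among all 17266 genes, the 3 whose means over the 8 compounds were most like those of GPC6 were KCNK1 (r = 0.989), RSPH14 (0.987) and IFT122 (0.986). For GPC3 they were CFB (0.987), LTBP4 (0.980) and TSPAN7 (0.976). For SULF2 they were ATP6AP2 (0.976), CCL15 (0.975) and TP53TG1 (0.970). For SDC4 they were TWF2 (0.987), ETV7 (0.982) and DLK2 (0.979). These are the highest of 17266 coefficients in each case, over points that share arrays and DMSO, and are given as a description.

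The enzymes that build and break down the chains were read from 5 lists with 70 other genes, of which 68 could be tested on the shared platform and 47 with IND. Of 591 pairs of a gene and a compound, 64 were called higher, 76 lower and 451 neither. BF had the most lower calls, 22 of 68 (32.4%, against 20.5% of all genes), with a list median of -0.16 against -0.01 over all genes. BaP had the most higher calls, 15 of 68 (22.1%, against 15.1%), with a median of 0.08 against 0.04. CHR had 12 in each direction (17.6%, against 11.9% and 12.5%). IND had 6 of 47 higher and 10 lower (12.8% and 21.3%, against 11% and 13.7%). DBA had 0 higher and 5 lower (7.35%, against 3.09% and 7.21%). NP had 7 and 8 (10.3% and 11.8%, against 6.7% and 12.5%), and PH 8 and 6 (11.8% and 8.82%, against 10.5% and 7.95%). 3MC had 4 and 6 (5.88% and 8.82%, against 3.71% and 7.39%), and BA 3 and 2 (4.41% and 2.94%, against 2.1% and 3.12%). Several of these shares lie near those of all genes. Split into the 5 lists, the share higher with BaP (15.1% of all genes) was 8.33% for linker and polymerisation and 5.26% for sulfation. It was 30% for other core proteins, 21.4% for turnover and 53.8% for chondroitin sulfate. The shares lower with BF (20.5% of all genes) were 33.3%, 21.1%, 50%, 28.6% and 38.5% in that order. Totals of calls per list below are sums over compounds, and no lean is read from them. All genes had 13533 higher and 16003 lower calls.

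**Figure D4:**
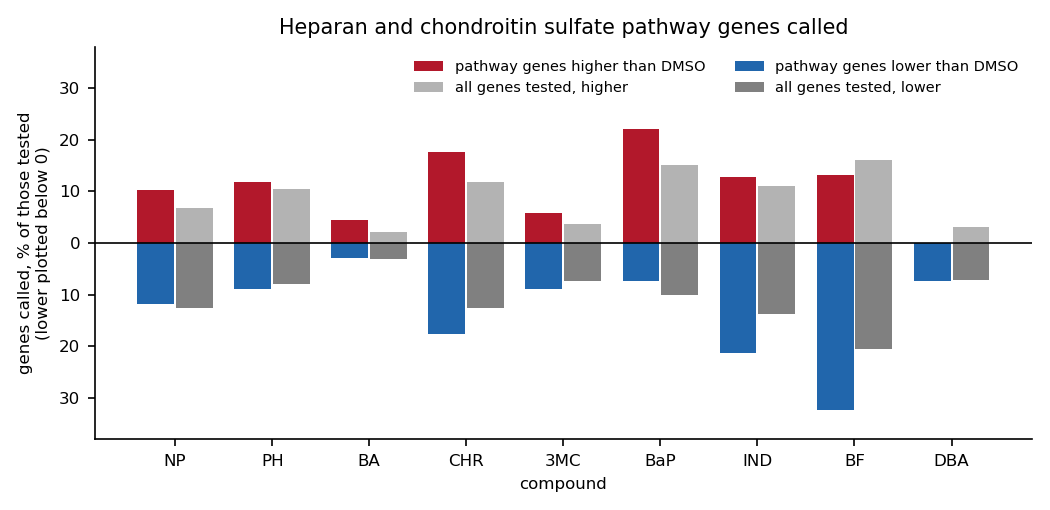
Percent of the tested pathway genes (coloured bars) and of all genes tested (grey bars) called higher (above 0) or lower (below 0) than DMSO, by compound. BF has the tallest lower bars, at 32.4% of pathway genes and 20.5% of all genes.

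Of the enzymes that lay down the linker and polymerise the chain (12 genes), 9 calls were higher and 15 lower over all compounds. EXT1, a subunit of the chain polymerase, fell with PH by 0.79 ± 0.08 (SD, n = 3) on the log2 scale (limma adjusted p = 4.44e-11). EXTL2, which can end a chain at the linker, fell with 4 compounds, by 0.90 with PH and 0.77 with 3MC. B3GAT3, which completes the linker, rose with BaP (1.27 ± 0.04 SD, n = 3; limma adjusted p = 1.72e-13) and with NP and 3MC, and fell with BF (-1.05 ± 0.10 SD, n = 3; limma adjusted p = 2.40e-12). B3GALT6, another linker enzyme, rose with NP (0.96) and 3MC (0.66), and FAM20B, the kinase of the linker xylose, fell with NP (-0.76), 3MC (-0.73) and DBA (-0.67). The FAM20B calls were lost when its probes were averaged, at -0.20, -0.21 and -0.19.

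The 20 genes for sulfation and epimerisation had 8 higher and 21 lower calls, and HS6ST1 was called most often. It adds the 6-O-sulfates that SULF2 removes. HS6ST1 fell with 7 of 9 compounds, from -0.60 ± 0.04 with 3MC to -1.68 ± 0.16 with BF (SD, n = 3 each; limma adjusted p = 3.07e-07 and 3.10e-15), and rose with PH (0.62 ± 0.14 SD, n = 3; limma adjusted p = 1.25e-07). With CHR, BaP, 3MC and DBA it was lower (-0.63, -0.91, -0.60 and -1.06) in the same arrays in which SULF2 was higher. With NP both were lower, HS6ST1 at -0.98 ± 0.04 (SD, n = 3). NDST1, which starts sulfation by making N-sulfated stretches, rose with PH (0.87), CHR (0.84), BaP (1.15) and BF (1.02), although with BF the mean over its probes was -0.24. PAPSS1, which makes the sulfate donor, fell with PH (-1.06), IND (-0.77) and BF (-1.15). With median centring HS6ST1 was no longer called with CHR (-0.35), 3MC (-0.40), DBA (-0.55) and IND (-0.50), and with its probes averaged it was not called with NP (-0.50), 3MC (-0.29), DBA (-0.52) and PH (0.51). NDST1 was then also not called with PH (0.56) and CHR (0.52).

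The 10 other core proteins that carry heparan sulfate had 7 higher and 11 lower calls, most of them in NRP1 and COL18A1, in opposite directions. NRP1, a co-receptor for VEGF and semaphorins, rose with 5 compounds and most with BF (2.46 ± 0.04), BaP (1.82 ± 0.06) and IND (1.74 ± 0.04; SD, n = 3 each; limma adjusted p = 3.90e-13, 1.07e-10 and 6.08e-07). COL18A1, the collagen that yields endostatin, fell with 6, among them BF (-1.91 ± 0.09) and IND (-1.75 ± 0.07; SD, n = 3 each; limma adjusted p = 8.96e-10 and 7.52e-07). With BF, 5 of the 10 fell (20.5% of all genes did), AGRN, a basement membrane protein, by 1.99 and HSPG2, which encodes perlecan, by 1.86. In BA, NRP1 was 0.91 ± 0.71 and COL18A1 -0.62 ± 0.87 (SD, n = 3 each), or 1.32 and -1.12 without array 1. With probes averaged, the calls of NRP1 with CHR (0.29) and of COL18A1 with BaP (-0.52) and DBA (-0.37) were lost.

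The 15 genes for turnover and shedding had 19 higher and 11 lower calls. IDS, a lysosomal sulfatase, rose with 6 compounds, by 1.91 ± 0.15 with BaP, 1.77 ± 0.11 with BF, 1.53 ± 0.02 with IND and 1.01 ± 0.06 with NP (SD, n = 3 each; limma adjusted p from 7.58e-10 to 1.22e-05). SGSH and IDUA, lysosomal enzymes of the same route, rose with 3 compounds each, by 0.77 and 0.76 with 3MC. NOTUM, a Wnt deacylase that was first described as an enzyme releasing glypicans, fell with BF (-3.15 ± 0.10), CHR (-2.35 ± 0.18) and IND (-1.23 ± 0.05) and rose with NP (0.90 ± 0.03; SD, n = 3 each; limma adjusted p = 1.88e-15, 7.85e-13, 1.57e-06 and 2.60e-06). GPLD1, a phospholipase that cuts lipid anchors, fell with NP (-1.62) and 3MC (-1.13). SDCBP, the syntenin that binds syndecan tails, rose with CHR (1.08), BaP (0.69) and BF (1.22) and fell with NP (-1.04) and 3MC (-0.69). With spots marked as not found by the scanner software left out, IDS was not called with NP (0.19), CHR (0.28) and BF (0.31), and GPLD1 read 0.20 with NP and -0.13 with 3MC. With probes averaged, SDCBP was not called with NP (-0.49) and 3MC (-0.35).

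Chondroitin sulfate grows on the same linker, and its 13 genes had 21 higher and 18 lower calls, with 7 of them higher with BaP (53.8%, against 15.1% of all genes). CSGALNACT1 and CSGALNACT2, which commit a linker to chondroitin, rose with BaP by 1.23 ± 0.14 and 1.36 ± 0.05 (SD, n = 3 each; limma adjusted p = 8.20e-11 and 2.33e-11). CSGALNACT2 rose with 5 compounds, most with BF (2.14 ± 0.04 SD, n = 3; limma adjusted p = 5.73e-15), and CHPF2 with 5, by 1.11 with both PH and BF. CHSY3, a chondroitin synthase, fell with 6 compounds, by 1.73 ± 0.34 with BaP and 1.62 ± 0.20 with CHR (SD, n = 3 each; limma adjusted p = 1.63e-11 and 6.69e-11). CHSY1 fell with NP (-1.13), 3MC (-0.69) and DBA (-0.92). CHPF fell most with BF (-3.17 ± 0.07 SD, n = 3; limma adjusted p = 4.98e-19) and rose with BaP (0.63), and DSE, a dermatan epimerase, fell with IND (-1.23), BF (-1.15), PH (-0.67) and CHR (-0.61). Averaged over its probes, CHPF2 lost its calls with PH (0.55), CHR (0.25) and BaP (0.50) and turned to -0.63 with BF.

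**Figure D5:**
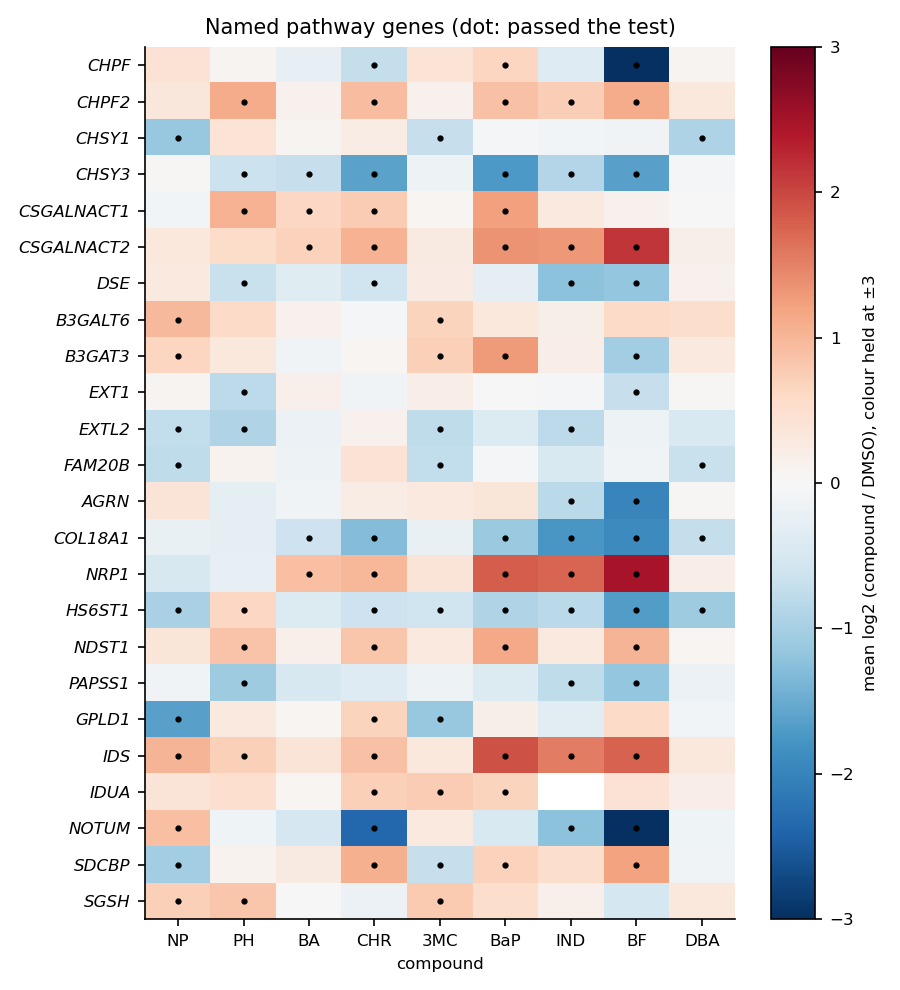
Mean log2 ratio of compound over DMSO (colour, held at -3 and 3) for the named pathway genes, in the order of their lists, by compound; a dot marks a value that passed the test and the blank cell was not tested. HS6ST1 and COL18A1 are lower and IDS, NRP1 and CSGALNACT2 higher with most compounds, while CHPF and NOTUM are lowest with BF.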

How the data were processed

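Per the file headers, the authors deposited scanner intensity values of each spot and of its local background in both dyes, together with the percent of saturated pixels; no member was saturated. The authors also deposited log2 ratios whose normalisation is not given in the sources used here, and 20 of their 27 columns could be tied to spots and served as an alternative. The genome build behind the deposited files is not given in the sources used here.

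The 9 members, the gene lists and the rule for named genes were chosen with earlier results of these data known. With R 4.3.3 and limma 3.58.1, background was corrected by normexp (offset 50) and each array was normalised by loess; control spots and spots flagged -75 or lower were left out. Spots of a probe were averaged, probes were kept where at least 2 of the 3 arrays of any compound had either dye over 2 background SDs above its local background, and the probe with the highest mean intensity stood for its gene. Transcript accessions and symbols named 26427 of 41000 probes (26789 with IND). One mean per compound was fitted to 24 arrays together and to IND alone; each was tested against 0, 2-sided. Named pathway genes are the 3 highest and 3 lowest calls per compound and genes called one way with at least 5 compounds. A few further list members were named after their values were seen. The pipeline was tested on simulated data. Alternatives covered background, normalisation, filters, probes, fold, fits and left-out arrays. The number of arrays limits the precision.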

Additional observations from a re-analysis of the deposited data

Results flagged for a closer look

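Among the members and the 70 pathway genes, 12 differed in direction between compounds. Each had all arrays of a compound above DMSO and all arrays of another below it, both means being at least 1.5-fold. The adjusted p was not part of this rule. The count was not made over all genes, of which 16.1% were called higher and 20.5% lower with BF, so nothing is read from it. Doses are unknown and the differences were not tested. Among the members, SULF2 was 3.52 with CHR and -1.42 with NP, a difference of 4.94 on the log2 scale, and SDC4 was 1.52 with BaP and -1.30 with BF, a difference of 2.82. Among the pathway genes, NOTUM differed by 4.06 (0.90 with NP, -3.15 with BF) and CHPF by 3.81 (0.63 with BaP, -3.17 with BF). HSPG2 differed by 2.53 (0.68 with BaP, -1.86 with BF), B3GAT3 by 2.32 (1.27 with BaP, -1.05 with BF) and HS6ST1 by 2.30 (0.62 with PH, -1.68 with BF). The sulfotransferases CHST15 and CHST3, higher with BaP (0.77 and 0.90) and lower with BF (-1.54 and -1.09), differed by 2.31 and 1.99. SDCBP differed by 2.25 (1.22 with BF, -1.04 with NP). GPLD1 differed by 2.29 (0.67 with CHR, -1.62 with NP) and HS2ST1 by 2.07 (0.83 with NP, -1.24 with BF). With spots marked as not found left out, GPLD1 turned to -0.36 with CHR and 0.20 with NP, and HS2ST1 to -0.040 with NP.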

How the results depend on the processing

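Over all compounds, 13533 calls of genes were higher and 16003 lower, with 18 and 17 for the members and 64 and 76 for the pathway lists. At 2-fold in place of 1.5-fold these became 4708 and 6431 for all genes, and 24 and 30 for the pathway lists, beside 13 and 15 for the members. No other setting moved one of these 6 totals by over 1.5 times, though counts of single compounds moved more. Leaving out 1 array at a time gave 13387 to 13968 and 15839 to 16503 for all genes, 18 to 19 and 16 to 18 for the members, and 62 to 66 and 74 to 78 for the pathway lists. The array numbers did not pair arrays of different compounds (mean correlation of their deviations 0.00205), and a fit with the replicate block gave 18 and 17 member calls. Median centring in place of loess gave 21 and 14 member calls, and it moved the split of all calls from 2610 higher and 1744 lower to 3621 and 1314 with BaP, from 533 and 1245 to 1584 and 638 with DBA, from 2786 and 3547 to 4141 and 3368 with BF, from 1156 and 2164 to 603 and 2970 with NP, from 362 and 539 to 915 and 1313 with BA, and from 2062 and 2160 to 2394 and 2126 with CHR. With spots marked as not found left out, GPLD1 turned to -0.36 with CHR and 0.20 with NP, and HS2ST1 to -0.040 with NP. With the mean over a gene's probes, CHPF2 turned to -0.63 and NDST1 to -0.24 with BF. The cause was not tested in either case. Scaling between arrays moved DBA most, to -5.36 for GPC6 and 3.99 for SULF2. Signal over background limits GPC4 with BF, BA and IND, SULF1 with all compounds but NP and PH, and faint probes on the dim arrays of DBA, 3MC and NP.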
